A study of Mus musculus with 82 samples.

Results

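Oxidative phosphorylation is carried out in the inner mitochondrial membrane by 5 protein complexes. Complexes I and II take electrons from NADH and succinate, complexes III and IV pass them through cytochrome c to oxygen, and complex V, the ATP synthase, uses the resulting proton gradient to make ATP. A small set of core subunits is encoded by the mitochondrial genome, which is transcribed as long precursors inside the organelle, and the remaining subunits are encoded by nuclear genes and imported. Hematopoietic stem cells (HSCs), which reside in bone marrow and give rise to every blood lineage, are known for low mitochondrial respiration at rest, while erythroid precursors and other dividing progenitors respire more.

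The subunit genes were collected by their symbols in the deposited gene count files: the mitochondrial mt-Nd, mt-Co, mt-Cytb and mt-Atp genes, and the nuclear Nduf, Sdh, Uqcr, Cox4 to Cox8 and Atp5 families, without pseudogene rows marked -ps. This gave 97 of 55376 gene rows, and 7 rows with -ps were left out. Of these genes, 13 are mitochondrial encoded, with 7 in complex I, 1 in complex III, 3 in complex IV and 2 in complex V. The other 84 are nuclear encoded, with 35 in complex I, 4 in complex II, 8 in complex III, 20 in complex IV and 17 in complex V. Both sets are described apart.

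The mRNA-seq data comprised 30 libraries from wild-type C57BL/6J male mice. Young HSCs (YHSCs, 3 to 4 months, 4 libraries from pooled mice) and old HSCs (OHSCs, 24 to 26 months, 8 libraries from individual mice) were sorted on CD150 as the CD34- Flk2- fraction of LSK cells (lineage negative, positive for Sca-1 and c-kit). Further OHSCs were transduced with lentivirus carrying a control shRNA (shControl), Btaf1 shRNA1 or Btaf1 shRNA2, both directed at the shorter variant of Btaf1, a regulator of the TATA-binding protein. They were profiled after 3.5 days of culture or, after transplantation into irradiated young female CD45.1 recipients, as resorted LSK CD48- CD150+ CD45.2+ cells, with 2 libraries per shRNA and experiment. Common myeloid (CMP), granulocyte-monocyte (GMP) and megakaryocyte-erythrocyte (MEP) progenitors of young mice gave 2 libraries each.

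Libraries held 20475764 to 24122404 gene reads in YHSCs, 22175623 to 24654742 in OHSCs, 37292602 to 42737054 in the shRNA experiments and 33177394 to 36510850 in the progenitors. A list of 8 HSC markers summed to 4658 to 4749 CPM (reads of a gene scaled to a common number of gene reads per library) in YHSCs, 4250 to 4662 in OHSCs, and 1035 to 1053 in CMPs. Granulocyte and monocyte markers summed to 58047 to 59380 CPM in GMPs and 16709 to 20164 in CMPs. Erythroid markers summed to 3517 to 3558 CPM in MEPs and 221 to 225 in CMPs, whereas the 8 megakaryocyte markers summed to only 57.1 to 70.5 CPM in the libraries labelled MEP. B cell markers ran from 137 to 1043 CPM in YHSCs and from 44.6 to 278 in OHSCs. The megakaryocyte markers summed to 509 to 532 CPM in YHSCs and 885 to 1210 in OHSCs, and the granulocyte and monocyte markers to 158 to 292 and 319 to 409 CPM, both without overlap, and their part in the age values was not tested. Btaf1, counted over all its variants, stood at 94.5 ± 11.8 CPM in YHSCs (SD, n = 4) and 133 ± 13.2 in OHSCs (n = 8). After knockdown it was 110 to 119 CPM in culture against 137 and 141 in shControl, and 118 to 139 CPM after transplantation against 161 and 165.

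The 13 mitochondrial genes took 0.650% ± 0.0541 of gene reads in YHSCs (SD, n = 4) and 0.660% ± 0.0450 in OHSCs (n = 8), and the 84 nuclear genes took 0.997% ± 0.00976 and 0.984% ± 0.0366. These shares overlapped between the ages. The mitochondrial share was lowest in cultured shControl HSCs, at 0.413% and 0.419%, and stood between 0.486% and 0.574% in the 6 progenitor libraries. The nuclear share was higher in all these groups than in YHSCs and OHSCs, from 1.31% and 1.33% in cultured shControl HSCs to 1.54% and 1.60% in CMPs, 1.66% and 1.72% in GMPs and 2.22% and 2.25% in MEPs. The ratio of mitochondrial to nuclear reads went from a mean of 0.652 in YHSCs and 0.671 in OHSCs to 0.515 in transplanted shControl HSCs, 0.317 in CMPs, 0.315 in cultured shControl HSCs, 0.289 in GMPs and 0.251 in MEPs. The labels name the same total RNA kit for the YHSC, OHSC and progenitor libraries and another kit for the shRNA libraries, while the methods name a SMART-Seq kit for YHSCs and OHSCs, and it is not stated whether progenitors and HSCs were sequenced together. Cell type and differences between these sets of libraries cannot be told apart where they are compared.

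**Figure D1:**
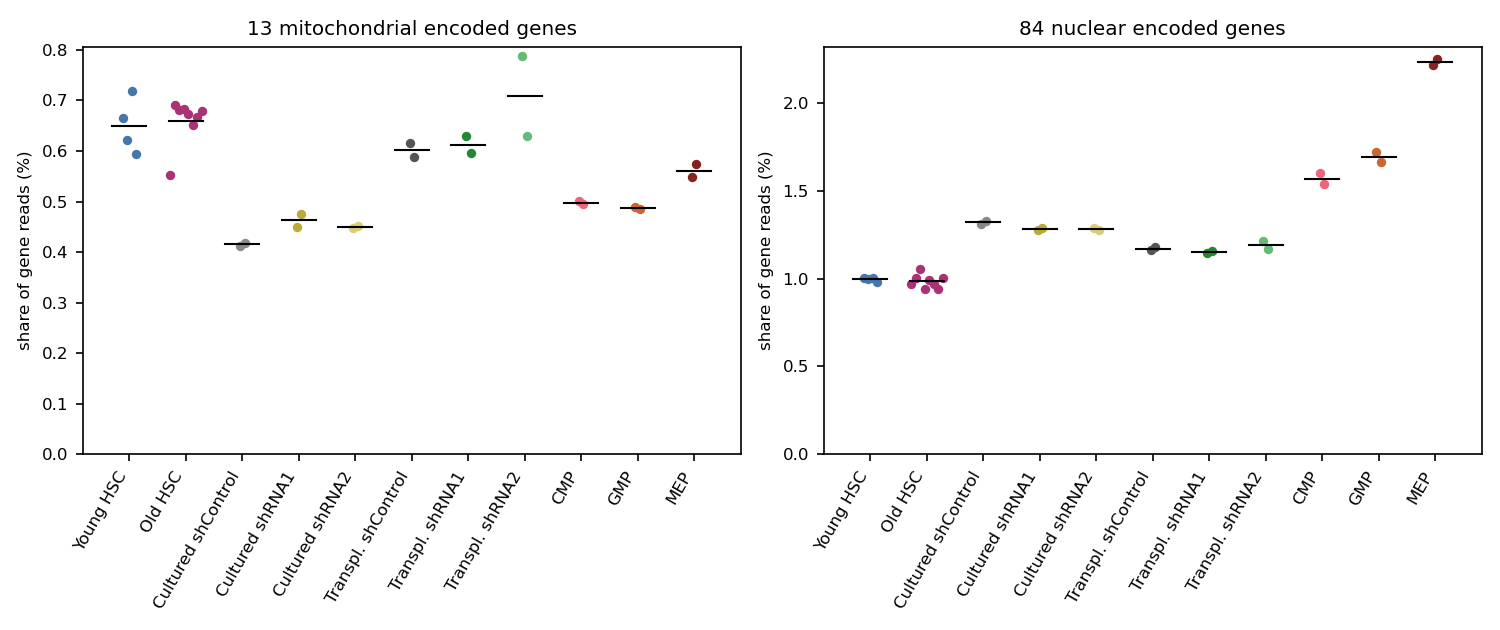
Share of gene reads (%) on the mitochondrial encoded (left) and nuclear encoded (right) oxidative phosphorylation genes; each point is a library and each line a group mean. The nuclear share is about 1% in young and old HSCs and above 2.2% in both MEP libraries, while 1 OHSC library lies low in the mitochondrial share, at 0.552%.

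Compared per kilobase of exon, which allows levels of different genes to be set side by side, mt-Cytb (cytochrome b, the mitochondrial subunit of complex III) was highest in YHSCs at 1710 ± 119 CPM per kb (SD, n = 4). It was followed by mt-Co1, the catalytic subunit of complex IV, at 1368 ± 110 CPM per kb, and mt-Nd1, a membrane subunit of complex I, at 803 ± 95.6 CPM per kb. The highest nuclear genes were Atp5a1, the alpha subunit of the ATP synthase, at 282 ± 5.14 CPM per kb, and Cox8a, a small subunit of complex IV, at 269 ± 7.67 CPM per kb. The median over the 83 nuclear genes with an annotated length was 55.3 CPM per kb in YHSCs, 58.5 in OHSCs, 88.2 in CMPs, 92.8 in GMPs and 127 in MEPs.

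Within the mitochondrial set, a block of neighbouring genes was far below the rest. In YHSCs, mt-Co3 and mt-Co2, the other mitochondrial subunits of complex IV, stood at 0.798 ± 0.0975 and 0.376 ± 0.105 CPM, mt-Atp6 and mt-Atp8 of complex V at 0.573 ± 0.0964 and 0.0428 ± 0.0342 CPM, and mt-Nd4l of complex I at 0.111 ± 0.0813 CPM (SD, n = 4). The same genes were higher in the CMP libraries, where mt-Co3 was at 36.8 and 37.9 CPM, mt-Co2 at 15.2 and 16.2 CPM and mt-Atp6 at 18.1 and 16.3 CPM. Even there they lay far below mt-Co1, at 1579 ± 59.3 CPM (SD, n = 2). A near-exact copy of this stretch lies in the nuclear genome of GRCm38, at chr1:24611535-24616188. Of all 50-base windows of mt-Co2, mt-Atp8, mt-Atp6, mt-Co3 and mt-Nd4l, 100% occurred in that copy without a mismatch, as did nearly all windows of mt-Nd3, and 62.2% of mt-Nd4 and 28.7% of mt-Co1 did. For mt-Nd1, mt-Nd2, mt-Nd5, mt-Nd6 and mt-Cytb the share was 0. How the counting treated reads that map to both places is not stated in the sources used, and its part in the low counts was not tested, so the levels of these 8 genes are uncertain. The first 30 bases of mt-Co2 are printed with the matching bases on chromosome 1 (minus strand), from the GRCm38.p6 genome, because they carry 0 differing bases over that length, so that these reads match both places equally.
mt-Co2, chrM:7013-7042: atggcctacccattccaacttggtctacaa
copy, chr1:24615536-24615565: atggcctacccattccaacttggtctacaa

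**Figure D2:**
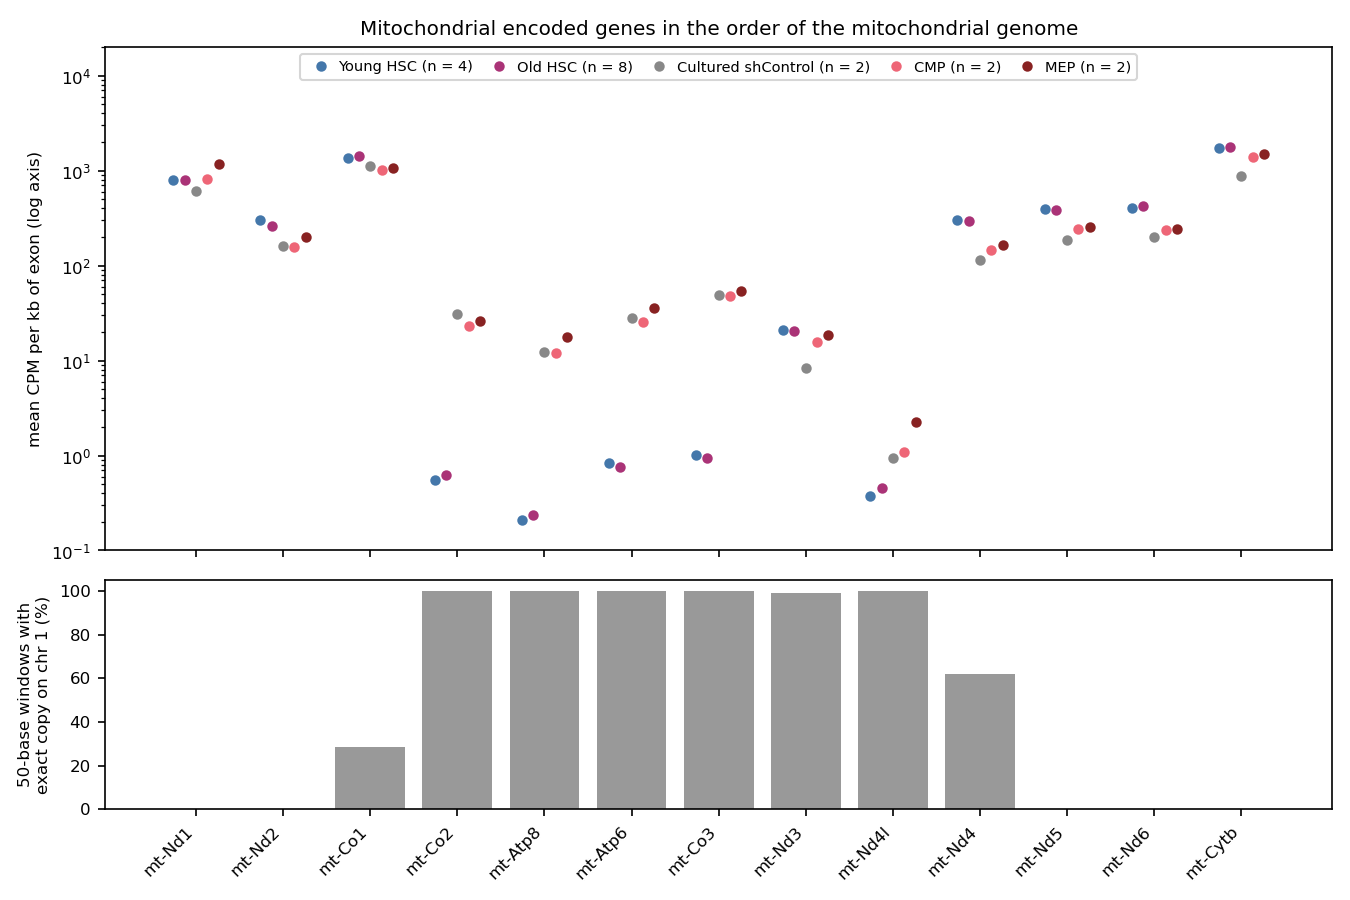
Mean CPM per kb of exon (log axis) of the 13 mitochondrial encoded genes in genome order, in 5 groups (top), and the share of each gene's 50-base windows with an exact copy on chromosome 1 (bottom). The low genes are those whose windows are all or nearly all covered by the copy, and mt-Co2, mt-Atp8, mt-Atp6 and mt-Co3 are lower in young and old HSCs than in the other 3 groups.

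With age, the mitochondrial encoded genes showed no call. In edgeR's quasi-likelihood test over 21522 genes, 11 of the 13 could be tested and 0 rose and 0 fell at an adjusted p under 0.05, with 0 at an unadjusted p under 0.05 and 0 calls by DESeq2, while 11.9% of all genes tested rose and 8.67% fell. Their median log2 fold change was 0.01, beside -0.01 over all genes, and it was -0.03 with libraries scaled to total gene reads. The mt-Co1 level was 2214, 2022, 2295 and 1924 CPM in the 4 YHSC libraries, and ran from 1765 through a median of 2279 to 2323 CPM in the 8 OHSC libraries. The mt-Cytb level was 1998, 1885, 2126 and 1814 CPM in YHSCs and 1763 to 2126 CPM in OHSCs. Both genes overlapped between the ages, and 1 OHSC library, replicate 1, lay below all YHSC libraries for both; without it 2 mitochondrial genes rose, beside 11.7% of all genes. The levels of mt-Nd1 (769 ± 91.5 and 753 ± 53.0 CPM), mt-Nd4 (415 ± 32.9 and 408 ± 34.8 CPM), mt-Nd5 (712 ± 55.2 and 698 ± 45.3 CPM) and mt-Nd6 (208 ± 18.2 and 218 ± 17.2 CPM), all subunits of complex I, differed by less than their spread (SD, n = 4 YHSC and n = 8 OHSC). The mt-Nd2 level, also of complex I, was 314 ± 52.5 and 274 ± 23.98 CPM, and its libraries overlapped between the ages. The low genes mt-Co2, mt-Co3, mt-Atp6 and mt-Nd3 made no call, and mt-Atp8 and mt-Nd4l had too few reads for the test.

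Of the 84 nuclear encoded genes, 80 could be tested with age. At an adjusted p under 0.05, 2 rose, against 11.9% of all genes, 1 fell, against 8.67%, and 77 made no call. With a change past 1.5-fold required as well, 0 rose and 1 fell (4.69% and 2.83% of all genes), and at an unadjusted p under 0.05, 8 were higher and 3 lower (16.7% and 13.3%). Their median log2 fold change was 0.02, and -0.02 with libraries scaled to total gene reads. At the adjusted threshold 5 fell with that scaling, and 2 with DESeq2 size factors (12.6% and 9.02% of all genes). The largest rise was that of Atp5mpl, which encodes a small proteolipid associated with the ATP synthase (chr12:111961375-111966977, minus strand, mm10, GENCODE M21). Its level was 74.9, 75.0, 72.5 and 71.8 CPM in the YHSC libraries and 98.1, 103, 113, 101, 107, 104, 97.8 and 107 CPM in the OHSC libraries. Every OHSC library lay above every YHSC library. The log2 fold change was 0.54 (standard error, SE, 0.05, edgeR adjusted p = 7.6e-09), and it ranged from 0.52 to 0.56 when any library was left out. Ndufa11, an accessory subunit of complex I, went from 58.5 ± 3.64 to 66.9 ± 3.70 CPM (log2 fold change 0.23, SE 0.05, edgeR adjusted p = 0.0029), with overlapping libraries. It overlaps Vmac on the opposite strand, and reads of both cannot be told apart unless strand was used. Without OHSC replicate 4 the number of rising nuclear genes was 7, and without OHSC replicate 7 it was 4, beside 13.4% and 12% of all genes in those fits.

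The gene that fell was Cox4i2, the alternative isoform of the regulatory subunit 4 of complex IV, known for its induction at low oxygen (chr2:152754173-152765037, plus strand). It stood at 4.69, 3.57, 3.36 and 4.35 CPM in YHSCs and ran from 1.33 through a median of 1.82 to 2.36 CPM in OHSCs, without overlap. The log2 fold change was -1.07 (SE 0.17, edgeR adjusted p = 4.5e-05). Its common counterpart Cox4i1 was at 252 ± 9.09 CPM in YHSCs (SD, n = 4) and 250 ± 10.0 in OHSCs (n = 8), with a log2 fold change of 0.03. The other isoform sets made no call with age: Cox6a1 (log2 fold change 0.00), Cox6b1 (0.10) and its testis-enriched counterpart Cox6b2 (0.02), Cox7a1 (0.35), Cox7a2 (0.02) and Cox7a2l (0.09), Cox8a (0.04), and the c-subunit genes Atp5g1 (-0.03), Atp5g2 (0.00) and Atp5g3 (0.04). Cox6a2 and Cox8b, the muscle isoforms, and Cox8c had too few reads.

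Besides Cox4i2, 3 of the 80 nuclear genes lay lower in CPM in every OHSC library without passing the test. Of all genes, 8.02% lay lower in every OHSC library. Uqcrc1, a core subunit of complex III, stood at 265 to 277 CPM in YHSCs and 239 to 256 in OHSCs (log2 fold change -0.10, adjusted p = 0.061 from edgeR). Sdhb, the iron-sulfur subunit of complex II, stood at 121.26 to 126.49 and 110.53 to 121.24 CPM (log2 fold change -0.06, adjusted p = 0.34). Ndufs1, the largest core subunit of complex I, stood at 125 to 129 and 113 to 124 CPM (log2 fold change -0.04, adjusted p = 0.56). The remaining named subunits, Sdha, Sdhc and Sdhd of complex II, Uqcrfs1 (the Rieske protein of complex III), Ndufv1 and Ndufa4, overlapped between the ages. Since bulk RNA was measured, a lower level in fewer cells of a kind and less RNA per cell cannot be told apart in any comparison. The 10 proliferation genes summed to 847 to 908 CPM in YHSCs and 576 to 727 in OHSCs, and their part in these values was not tested.

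**Figure D3:**
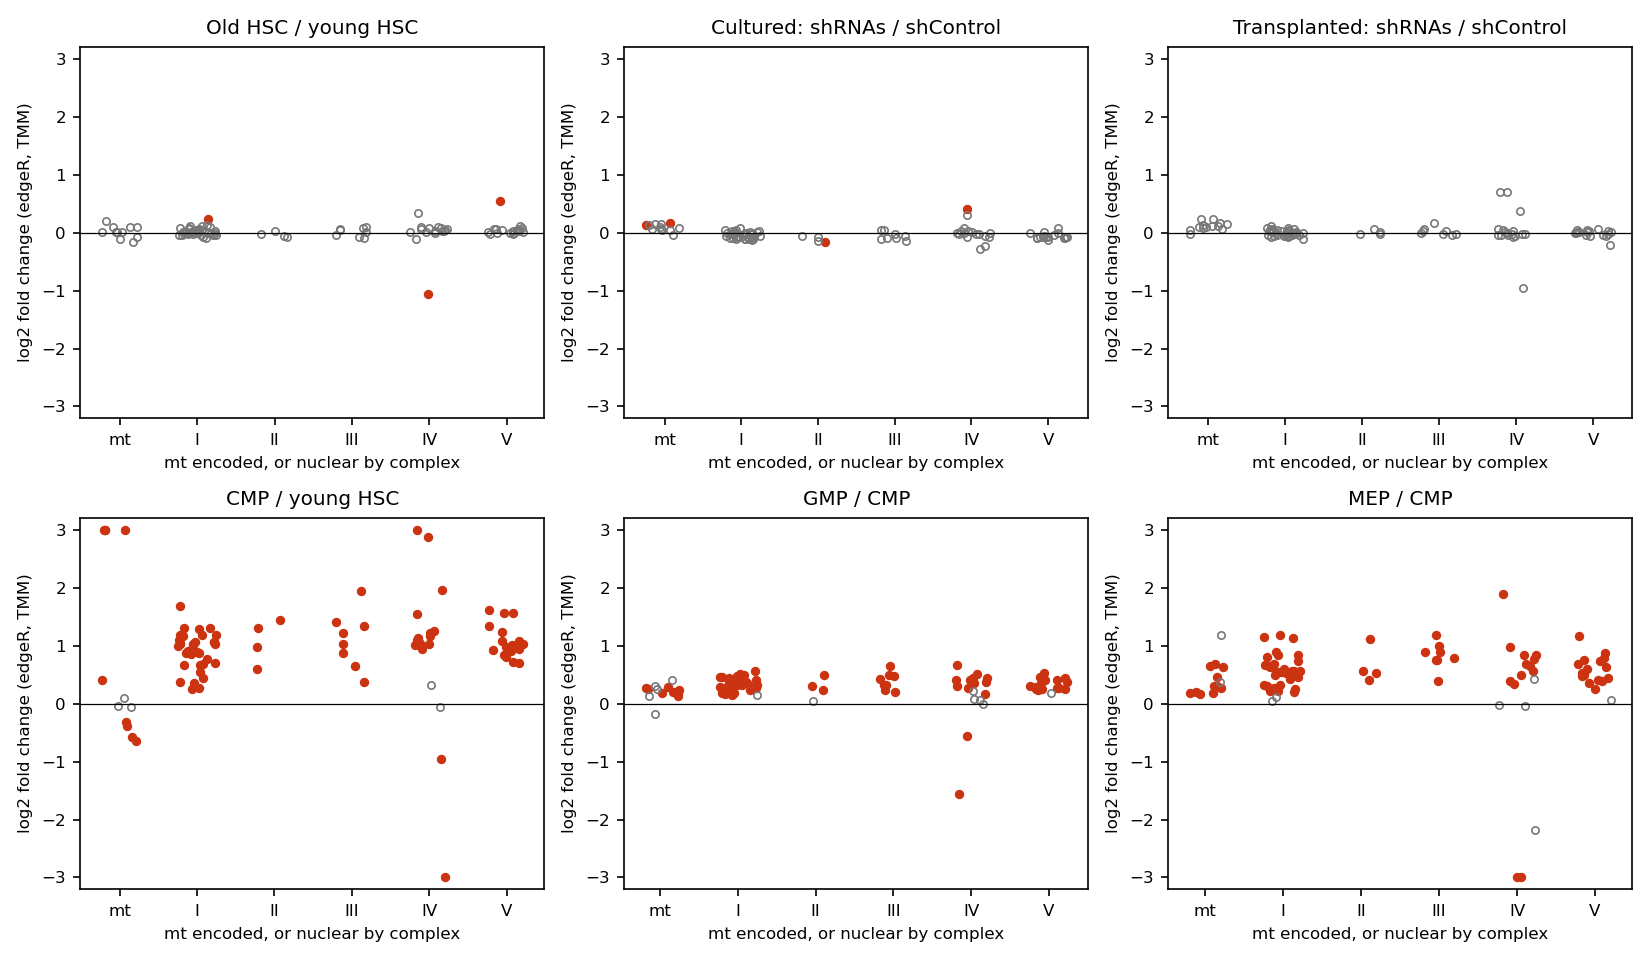
Log2 fold change of each tested gene by complex and comparison, with mitochondrial and nuclear genes marked apart and calls filled. Values past 3 in either direction are drawn at the edge; with age and after knockdown nearly all genes lie close to 0, and in CMP against YHSC and MEP against CMP the nuclear genes of all 5 complexes lie mostly above it.

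Calls in the related pathways are read beside the 11.9% of all genes that rose with age and the 8.67% that fell. Of 47 assembly factors tested, 4 rose and 0 fell, and of 27 genes of mitochondrial transcription and translation 2 rose and 1 fell. The list of 18 tricarboxylic acid cycle genes also holds Pdhx, of the pyruvate dehydrogenase complex. Of these 18, 1 rose, Suclg2, and 3 fell, Idh2, Idh3b and Pdhx. Idh2, the mitochondrial NADP-dependent isocitrate dehydrogenase, went from 223 ± 3.57 to 187 ± 6.53 CPM (SD, n = 4 and n = 8; log2 fold change -0.22, adjusted p = 0.00014 from edgeR), without overlap between the ages. The list of 18 regulators of mitochondrial biogenesis also holds pyruvate dehydrogenase kinases. Of these 18, 0 rose and 2 fell. The 2 were Pdk1, such a kinase (175 ± 9.55 and 152 ± 8.34 CPM, log2 fold change -0.16), and Gabpb2, a subunit of the GABP factor (77.6 ± 2.69 and 68.6 ± 3.61 CPM, -0.14). Tfam, the mitochondrial DNA packaging and transcription factor, stood at 78.9 ± 3.44 and 77.3 ± 2.205 CPM (SD, n = 4 and n = 8). Cycs, cytochrome c, stood at 35.8 ± 1.85 and 34.9 ± 2.79 CPM. The co-activators Ppargc1a (10.4 ± 0.508 and 8.92 ± 1.40 CPM) and Ppargc1b (20.7 ± 1.31 and 18.1 ± 2.28 CPM), the factors Nrf1 and Esrra, the polymerase Polrmt, the RNA stability factor Lrpprc and the pyruvate dehydrogenase kinase Pdk4 made no call.

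Chromatin at the nuclear genes was compared between ages by ATAC-seq, which reads open chromatin from transposase insertions. A consensus region overlapped the promoter, taken as 1000 bp upstream to 100 bp downstream of a gene start, of 75 nuclear genes, and 74 of these regions passed the filter of more than 1.5 CPM in at least 4 libraries. In the 4 YHSC and 4 OHSC libraries used here, 23 regions fell and 0 rose at the study's adjusted p under 0.01 (edgeR), with 1 rising and 34 falling at 0.05, beside 5.3% and 37.2% of the promoter regions of all genes at that threshold. At 0.01, of all regions 9.54% fell and 13.7% rose, but of the 15068 promoter regions of all genes 25.5% fell and 3.76% rose. The median log2 fold change was -0.16 for the subunit promoters and -0.14 for all promoter regions, and the share of falling regions, 23 of 74, stood beside 25.5% for all promoters. The region of Ndufa9, an accessory subunit of complex I, at chr6:126848662-126849571 (mm10) went from 6.21, 8.30, 8.06 and 7.92 CPM in YHSCs to 3.74, 5.94, 5.80 and 4.73 CPM in OHSCs. All OHSC libraries lay below all YHSC libraries, with a log2 fold change of -0.59 (SE 0.14, edgeR adjusted p = 0.00053). It was the only one past 1.5-fold, which 1.91% of all promoter regions passed in that direction. Without YHSC replicate 2, 3 or 4 or OHSC replicate 5 or 8, no region of the subunit genes passed 1.5-fold. Next came Ndufs5 at chr4:123717732-123718745, with 27.6 ± 0.468 and 20.6 ± 1.33 CPM (SD, n = 4 each; log2 fold change -0.44), Ndufv1 at chr19:4012397-4013324, with 24.03 ± 1.98 and 18.0 ± 0.658 CPM (-0.43), and Cox8a at chr19:7217094-7218148, with 37.2 ± 2.80 and 28.3 ± 2.199 CPM (-0.42). The RNA of these 4 genes made no call with age. At Atp5mpl, whose RNA rose, the promoter region at chr12:111966533-111967399 had 10.9 ± 0.557 and 9.22 ± 1.13 CPM, a log2 fold change of -0.25 (adjusted p = 0.067 from edgeR).

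**Figure D4:**
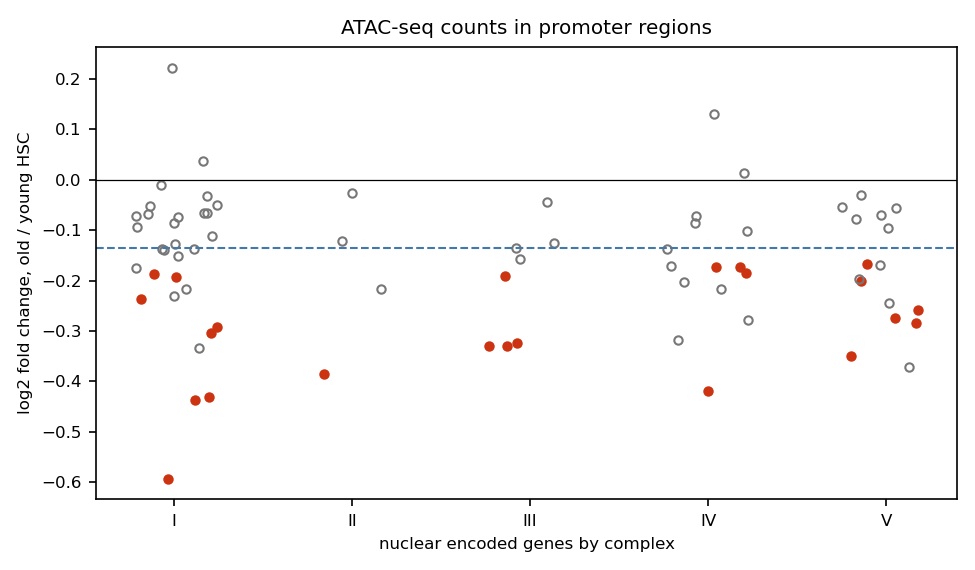
Log2 fold change of ATAC-seq counts, old against young HSCs (4 libraries each), in the promoter regions of nuclear subunit genes by complex; filled points passed an adjusted p under 0.01 and the dashed line is the median of the promoter regions of all genes, -0.14. Most points lie below 0, and the filled ones are all below 0.

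H3K27ac, a histone mark of active promoters and enhancers, was measured as a normalized signal in 2 libraries per age. Of 77 peaks at the promoters of 73 nuclear genes, 0 rose and 0 fell at an adjusted p under 0.05 in limma, beside 2.71% of all peaks rising and 0.465% falling. At an unadjusted p under 0.05, 1 was higher and 3 were lower, beside 12.7% and 4.82% of all peaks. The median log2 fold change was -0.02 at the subunit genes and -0.02 at all promoter peaks. With libraries scaled to the same median signal, both medians were -0.10. At an unadjusted p under 0.05 in limma, 0 were then higher and 10 lower, beside 3954 and 4513 of all 39557 peaks. The Atp5mpl peak was at 6.26 and 6.05 in YHSCs and 6.74 and 6.36 in OHSCs (log2 fold change 0.08). In YHSCs, H3K4me3, a mark of active promoters, had a median signal of 23.6 over 76 peaks of 75 nuclear genes and of 17.4 over all promoter peaks, given as a description.

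As a description of sequence at the nuclear genes, RefSeq promoter windows (GRCm38.p6, 250 bases upstream to 50 downstream) were searched on both strands for motif cores that are textbook elements of respiratory gene promoters. Windows were found for 68 of the 84 genes, 73 windows in all. The core of the NRF1 site, CATGCGC, occurred in 13 windows (17.8%), against 3.91% of 32851 windows of all genes. The ETS core CCGGAAG, read by GABP among others, occurred in 17 windows (23.3%, against 8.86%), and the YY1 core ATGGCGG in 11 windows (15.1%, against 4.05%). At least 1 of these 3 was present in 34 windows (46.6%, against 15.0%). TATAAA, searched as a contrast, occurred in 9 windows (12.3%, against 13.6%). A match is a run of letters in these windows and not a measured binding site. The stretches printed here show each core, in capitals, at a subunit gene of 1 of the complexes, on the strand of the gene.
Sdhb, NRF1 core, chr4:140961207-140961236: agcccagtgggCATGCGCcctacgggccgc
Uqcr11, NRF1 core, chr10:80406806-80406835: tcgccttcacgCATGCGCtatacgtctgca
Cox6a1, NRF1 core, chr5:115349099-115349128: ggaacggggcgCATGCGCgctctcgctcca
Atp5j, ETS core, chr16:84835019-84835048: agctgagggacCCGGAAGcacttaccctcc
Ndufb7, ETS core, chr8:83566727-83566756: gcctagatgacCCGGAAGacactgaagggg
Ndufs7, YY1 core, chr10:80249465-80249494: ccgaggccaagATGGCGGcgctggcgggtg

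Knockdown of the shorter Btaf1 variant was first compared with the control in cultured OHSCs. With the 4 Btaf1 shRNA libraries against 2 shControl libraries, 81 nuclear genes were tested, 1 rose and 1 fell, beside 1.7% of 19763 genes rising and 1.66% falling. The number that fell was 7 with shRNA1 alone, 3 with shRNA2 alone, 3 by DESeq2 and 0 with libraries scaled to total gene reads, beside 5.79%, 4.22%, 3.42% and 1.28% of all genes in those fits. The gene that rose was Cox6b2, the testis-enriched isoform of subunit 6b of complex IV (chr7:4751792-4753094, minus strand). It was at 27.8 and 28.4 CPM in shControl, 37.9 and 38.1 CPM with shRNA1, and 36.0002 and 38.7 CPM with shRNA2. All 4 knockdown libraries lay above both controls, with a log2 fold change of 0.41 (SE 0.07, edgeR adjusted p = 0.0041), and of 0.41 with either shRNA alone. When either control was left out, the log2 fold change was 0.39 without shControl replicate 1 and 0.42 without replicate 2 (SE 0.09 in both), with adjusted p = 0.10 and 0.074 from edgeR. In fits that leave 1 library in a group, that library is assumed to vary like the other group. Its common counterpart Cox6b1 was at 234 ± 5.16 CPM in shControl (SD, n = 2) and 232 ± 3.76 in knockdown (n = 4), with no call.

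After transplantation, Cox6b2 was at 25.3 and 22.8 CPM in shControl, 34.7 and 33.03 CPM with shRNA1 and 28.9 and 28.6 CPM with shRNA2. The log2 fold change of 0.37 (SE 0.12) had an unadjusted p of 0.010 and an adjusted p of 0.85 in edgeR, so no call was made. The knockdown effects in culture and after transplantation differed by -0.03 on the log2 scale (SE 0.13, unadjusted p = 0.81 for the interaction in edgeR).

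Sdha, the flavoprotein subunit of complex II, fell in culture. It stood at 541 and 527 CPM in shControl, 476 and 470 CPM with shRNA1 and 497 and 493.4 CPM with shRNA2, a log2 fold change of -0.16 (SE 0.04, edgeR adjusted p = 0.045). All knockdown libraries lay below both controls. The call was not made without shControl replicate 1 (adjusted p = 0.46) or 2 (0.23), shRNA1 replicate 1 (0.11) or 2 (0.086) or shRNA2 replicate 2 (0.066). It was also lost with libraries scaled to total gene reads (adjusted p = 0.053 from edgeR) and with mitochondrial genes left out of the fit (0.052). After transplantation Sdha was at 532 and 528 CPM in shControl and 509 to 532 CPM in knockdown, with overlap. In CPM, 25 of the 81 nuclear genes lay lower in all 4 cultured knockdown libraries than in both controls and 4 lay higher, beside 10.8% and 14.6% of all genes. Of the nuclear genes, 13 had an unadjusted p under 0.05 for a lower level and 1 for a higher level (7.55% and 7.72% of all genes did). None of the 81 changed by more than 1.5-fold at an adjusted p under 0.05 (0.582% of all genes rose and 0.324% fell by this rule) or at an unadjusted p under 0.05 (2.45% and 0.972%). Among those lower in all 4 knockdown libraries, Sdhb went from 173 ± 5.31 to 158 ± 1.72 CPM (adjusted p = 0.071 from edgeR) and Uqcrc1 from 383 ± 4.28 to 350 ± 10.6 CPM (adjusted p = 0.064). Both are given as values without a call.

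In culture, mt-Nd4 and mt-Co1 rose among the mitochondrial genes. Of 12 tested, 2 rose and 0 fell, beside 1.7% and 1.66% of all genes, with 3 higher and 0 lower at an unadjusted p under 0.05 (7.72% and 7.55% of all genes) and 0 falling by DESeq2. The gene mt-Nd4 was at 157 and 162 CPM in shControl, 180 and 189 CPM with shRNA1 and 177 and 180 CPM with shRNA2 (log2 fold change 0.17, SE 0.04, edgeR adjusted p = 0.041). The gene mt-Co1 was at 1696 and 1740 CPM in shControl, 1930 and 1996 CPM with shRNA1 and 1873 and 1846 CPM with shRNA2 (log2 fold change 0.14, SE 0.03, edgeR adjusted p = 0.047). In both, the knockdown libraries lay above both controls. The levels of both genes are uncertain, as 62.2% and 28.7% of their 50-base windows also occur on chromosome 1. Neither call was made with the replicate number as a block. The mt-Cytb level, without a call, was 1009 and 998 CPM in shControl, 1064 and 1156 CPM with shRNA1 and 1133 and 1121 CPM with shRNA2, also without overlap (log2 fold change 0.14, SE 0.04, edgeR adjusted p = 0.072). The median log2 fold change was 0.09 for mitochondrial and -0.06 for nuclear genes, beside 0.00 for all genes. Neither call was made without shControl replicate 1 or 2 or either shRNA1 library, and that of mt-Nd4 was not made without either shRNA2 library, with adjusted p between 0.051 and 0.43 over these fits in edgeR. The 10 proliferation genes summed to 3192 and 3223 CPM in shControl and 2895 to 3150 CPM in knockdown, and the erythroid markers to 232 to 234 and 145 to 175 CPM. HSC markers summed to 1860 to 1898 CPM in shControl and 2015 to 2127 in knockdown, granulocyte and monocyte markers to 179 to 190 and 208 to 260 CPM, plasma cell markers to 778 to 791 and 719 to 765 CPM, and T cell markers to 18.6 to 18.7 and 13.4 to 16.5 CPM. None of these lists overlapped between control and knockdown, and their part in the nuclear and mitochondrial values was not tested.

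After transplantation no gene of the 20350 tested passed an adjusted p under 0.05 in edgeR, so the background was 0% in both directions. Of 81 nuclear and 13 mitochondrial genes, 0 were called by edgeR and 0 by DESeq2. At an unadjusted p under 0.05, 3 nuclear genes were higher and 1 lower (3.27% and 2.32% of all genes), and 0 mitochondrial genes. With a change past 1.5-fold required as well, 1 nuclear gene was higher and 0 lower (1.43% and 0.811%). Besides Cox6b2, Uqcrfs1 went from 100 and 99.7 CPM in shControl to 113 and 111 CPM with shRNA1 and 114 and 115 CPM with shRNA2 (log2 fold change 0.17, unadjusted p = 0.018, edgeR adjusted p = 0.85). Cox4i2 went from 1.57 and 2.61 CPM to 2.98, 3.53, 3.88 and 3.21 CPM (log2 fold change 0.70, unadjusted p = 0.030, edgeR adjusted p = 0.86). The lower gene was Atp5mpl, which rose with age, at 110 and 112 CPM in shControl, 96.0 and 99.7 CPM with shRNA1 and 98.9 and 91.3 CPM with shRNA2 (log2 fold change -0.21, unadjusted p = 0.0099, edgeR adjusted p = 0.85). In none of these 3 genes did the groups overlap, and the same held for others, such as Ndufs4, Cox6c and Cox8a. The share of all genes separated in this way was not counted. In culture, Atp5mpl was at 114 and 109.3 CPM in shControl and 104 to 108.5 CPM in knockdown (log2 fold change -0.09, unadjusted p = 0.093, edgeR adjusted p = 0.43). HSC markers summed to 3527 to 3581 CPM in shControl and 3203 to 3442 in knockdown, dissociation stress genes to 429 to 460 and 324 to 400 CPM, and plasma cell markers to 233 to 252 and 264 to 311 CPM, each without overlap. Granulocyte and monocyte markers overlapped, at 203 to 360 CPM in shControl, 288 to 704 with shRNA1 and 247 to 371 with shRNA2, and the part of these lists was not tested. The knockdown effect differed between culture and transplantation for 0 members at an adjusted p under 0.05 in edgeR and for 1 in DESeq2 (1.83% of all genes), beside 0.103% of genes tested in 1 direction and 0.107% in the other (0.0793% and 0.0886% past 1.5-fold). At an unadjusted p under 0.05, which 4.6% and 4.15% of genes passed by direction, it differed for 4, among which Uqcrfs1 had an adjusted p of 0.24 in edgeR.

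**Figure D5:**
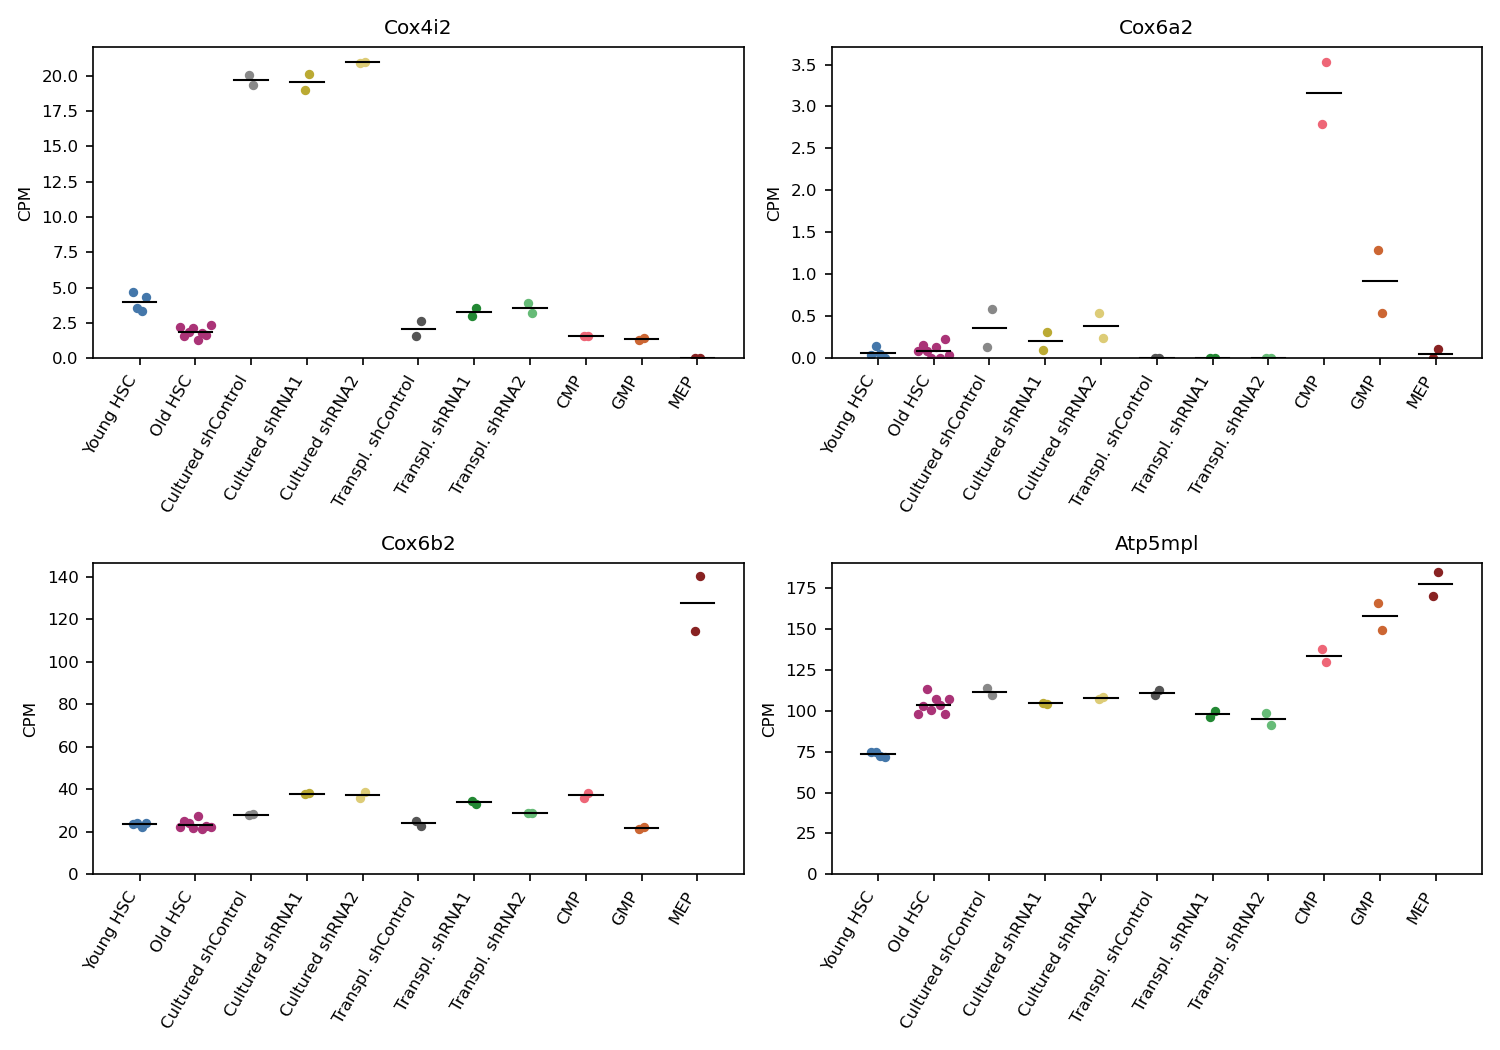
CPM of single nuclear genes in every library, by group, with the group mean as a line. Atp5mpl separates young from old HSCs, Cox6b2 lies above shControl in all knockdown libraries and is highest in MEPs at 115 and 140 CPM, and Cox4i2 is highest in the cultured libraries at 18.96 to 20.97 CPM.

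Young CMPs differed from YHSCs in most nuclear subunit genes. Of 82 tested, 78 rose and 2 fell, beside 33.5% of 22360 genes rising and 47.6% falling, and 71 of the rising and both falling genes changed by more than 1.5-fold (23.3% and 40.8% of all genes). At an unadjusted p under 0.05 the counts were also 78 and 2 (33.8% and 48.2%). By edgeR with TMM scaling, whose factors were 0.836 and 0.843 in CMPs and 1.08 to 1.11 in YHSCs, all 35 genes of complex I, all 4 of complex II, all 8 of complex III and all 17 of complex V rose, and in complex IV 14 of 18 rose and 2 fell. In CPM, without these factors, both CMP libraries lay above all YHSC libraries for 30 of 35 genes of complex I, all 4 of complex II, 7 of 8 of complex III, 14 of 18 of complex IV and all 17 of complex V. That made 72 nuclear genes, and 3 lay below (Cox4i2, Cox7b2 and Cox7a2l), beside 24.7% of all genes above and 61.3% below. Among the overlapping genes was Ndufb9, an accessory subunit of complex I, with a mean of 83.1 CPM in YHSCs and 76.9 CPM in CMPs. The median log2 fold change of the nuclear genes was 1.03, beside -0.33 over all genes. With libraries scaled to total gene reads these medians were 0.65 and -0.71, and 72 rose and 3 fell, beside 23.2% and 59.7% of all genes. With that scaling the fold change of 5 genes called here changed sign (Ndufa6, Ndufb2, Ndufb9, Ndufv3 and Uqcrh). This comparison shares the YHSC libraries with the age comparison, and the limits on comparing library sets given with the read shares apply to every value in it.

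Cox5a, a nuclear subunit of complex IV that overlaps Gm26631 on the opposite strand, was at 90.8, 91.8, 89.9 and 83.2 CPM in YHSCs and at 275 and 259 CPM in CMPs (log2 fold change 1.96, SE 0.05, edgeR adjusted p = 1.9e-16). Uqcrq of complex III went from 51.0 ± 1.02 CPM (SD, n = 4) to 152 ± 8.82 CPM (n = 2), Atp5g1 from 110 ± 2.63 to 259 ± 5.07 CPM, and Sdhb from 124 ± 2.46 to 259 ± 0.299 CPM. Ndufa4, assigned to complex IV in later work, went from 163 ± 1.83 to 365 ± 1.34 CPM. For all of them no CMP library overlapped a YHSC library, which the rule for naming genes required of Cox5a. The muscle isoform Cox6a2 was at 0 to 0.147 CPM in YHSCs and at 2.79 and 3.53 CPM in CMPs. It passed the count filter through the CMP libraries only, so no fold change is given, although it is among the rising genes counted above. Cox6a2 also overlaps the leukocyte integrin gene Itgad on the opposite strand, so its reads are uncertain. Cox6c2, annotated as a processed pseudogene, went from 0.146 to 0.249 CPM to 1.51 and 0.785 CPM.

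Cox7a2l made no call (97.4 ± 4.25 and 72.0 ± 2.65 CPM, log2 fold change -0.06), although both CMP libraries lay below all YHSC libraries in CPM. With libraries scaled to total gene reads it fell (log2 fold change -0.44, adjusted p = 2.5e-06 from edgeR). Cox4i2 fell from 3.99 ± 0.631 to 1.59 ± 0.00650 CPM (log2 fold change -0.95, adjusted p = 0.0013 from edgeR). Cox7b2, a further testis-enriched isoform, had 11 to 16 reads in each YHSC library and 0 in both CMP libraries, so it was at least 7.36-fold lower in CPM and 5.65-fold lower with the TMM factors, with 3 reads per library taken as the floor.

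Of 12 mitochondrial genes tested between YHSCs and CMPs, 5 rose and 4 fell, beside 33.5% of all genes rising and 47.6% falling. Of those that rose, mt-Co3, mt-Co2 and mt-Atp6 (log2 fold changes 5.92, 5.74 and 5.26) and mt-Atp8 are among the genes covered by the copy on chromosome 1. The gene mt-Atp8 stood at 0.0428 ± 0.0342 CPM in YHSCs and 2.44 ± 0.117 CPM in CMPs. It passed the count filter through the CMP libraries only, so its fold change is not given. The sources disagree on the kit of the YHSC libraries, whose part in these rises was not tested. The fifth was mt-Nd1 (769 ± 91.5 and 788 ± 21.1 CPM, log2 fold change 0.41, adjusted p = 0.024 from edgeR), with overlapping libraries. Those that fell were mt-Nd4 (415 ± 32.9 to 203 ± 4.31 CPM, log2 fold change -0.65), mt-Nd2 (-0.57), mt-Nd6 (-0.39) and mt-Nd5 (-0.31), all in complex I. The copy on chromosome 1 also holds 62.2% of the 50-base windows of mt-Nd4. With libraries scaled to total gene reads 4 rose and 7 fell, beside 23.2% and 59.7% of all genes. The 2 mitochondrial ribosomal RNA genes both fell, with a median log2 fold change of -1.83.

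From CMP to GMP the nuclear genes rose by small amounts that depended on the scaling. Of 81 tested, 72 rose and 2 fell in edgeR, beside 18.8% of 18234 genes rising and 16% falling, with a median log2 fold change of 0.31, and 2 of the rising and 1 of the falling genes passed 1.5-fold (6.24% and 10.5% of all genes). At an unadjusted p under 0.05, 74 were higher and 2 lower (22.8% and 20.4%). With libraries scaled to total gene reads, 27 rose and 3 fell, beside 8.2% and 30% of all genes, the median was 0.09, and the fold changes of 8 nuclear genes called in either fit changed sign. The scaling factors were 0.930 and 0.927 in the GMP libraries and 1.08 in both CMP libraries, and the granulocyte and monocyte markers summed to 58047 to 59380 CPM in GMPs, a share of reads whose part in the scaling was not tested. In CPM, 48 nuclear genes were higher in both GMP libraries than in both CMP libraries and 10 were lower, beside 18.1% and 51.5% of all genes. Cox7a2 went from 140 and 131 CPM to 188 and 184 CPM (log2 fold change 0.67, SE 0.05, edgeR adjusted p = 7.6e-07). Uqcrq went from 158 and 145 CPM to 206 and 201 CPM (0.64), and Ndufb3, an accessory subunit of complex I, from 78.1 and 73.4 CPM to 99.04 and 94.0 CPM (0.57). Cox6b2 fell from 35.9 and 38.4 CPM to 21.4 and 22.1 CPM (log2 fold change -0.55, SE 0.10, edgeR adjusted p = 0.00084), and Cox6a2 fell from 2.79 and 3.53 CPM to 1.30 and 0.543 CPM (adjusted p = 0.024), a call that was not made without CMP replicate 1 or 2 or GMP replicate 2 (adjusted p = 0.053, 0.14 and 0.14). In these 5 genes the libraries of CMP and GMP did not overlap, which the rule that named them required. Of 13 mitochondrial genes 8 rose and 0 fell by edgeR, with 0 lower at an unadjusted p under 0.05 and 0 falling by DESeq2, and with libraries scaled to total gene reads 0 rose and the fold changes of 4 called genes, mt-Co1, mt-Cytb, mt-Nd2 and mt-Nd4, changed sign. The largest values among the genes that rose were 0.29 for mt-Nd1, 0.27 for mt-Co3 and 0.25 for mt-Nd6 on the log2 scale, and 3 rose without CMP replicate 2 and 4 without GMP replicate 1, beside 12.6% and 13.5% of all genes.

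MEPs had the highest nuclear levels. Against CMPs, 72 of 81 nuclear genes rose and 2 fell, beside 28.9% of genes rising and 35.6% falling, and 36 of the rising and both falling genes passed 1.5-fold (17.5% and 29.2% of all genes). At an unadjusted p under 0.05, 72 were higher and 3 lower (30.4% and 37%). The median log2 fold change was 0.55, beside -0.07 over all genes, and with libraries scaled to total gene reads it was 0.44, with 67 rising, beside 24.5% of all genes. By complex, 33 of 35 genes rose in complex I, all 4 in complex II, all 8 in complex III, 11 of 17 in complex IV and 16 of 17 in complex V. The highest median was that of complex III, 0.84 on the log2 scale. The comparisons of GMP and of MEP share the CMP libraries.

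Cox6b2 was the gene with the largest rise in MEPs, at 115 and 140 CPM against 35.9 and 38.4 CPM in CMPs (log2 fold change 1.90, SE 0.10, edgeR adjusted p = 1.2e-09). Uqcrfs1 followed, at 305 and 291 CPM against 147 and 137 CPM (log2 fold change 1.18), with Ndufb9, an accessory subunit of complex I, at 159 and 161 CPM against 80.5 and 73.2 CPM (1.18). Atp5g1 went from 259 ± 5.07 to 534 ± 6.10 CPM (SD, n = 2 each; log2 fold change 1.16), Ndufs1 from 196 ± 2.49 to 396 ± 2.00 CPM (1.13) and Sdhd, a membrane anchor of complex II, from 286 ± 9.79 to 570 ± 5.11 CPM (1.11). No MEP library overlapped a CMP library for these 6 genes. For Cox6b2, Uqcrfs1 and Ndufb9 the rule that named them required this, and the share of all genes was not counted. In contrast, Ndufa4 (365 ± 1.34 and 327 ± 13.7 CPM), Cox7a2l (72.0 ± 2.65 and 65.4 ± 1.22 CPM) and Atp5g2 (61.3 ± 3.91 and 59.2 ± 5.95 CPM) made no call, with log2 fold changes of -0.05, -0.02 and 0.07.

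Cox4i2 had 57 and 58 reads in the CMP libraries and 0 in both MEP libraries, and was at least 18.8-fold lower in CPM and 17.4-fold lower with the TMM factors. Cox6a2 went from 2.79 and 3.53 CPM to 0 and 0.113 CPM, and it passed the count filter without the MEP libraries. Of the 13 mitochondrial genes 11 rose and 0 fell by edgeR (28.9% and 35.6% of all genes), 8 rose and 0 fell by DESeq2 (21.6% and 27.9%), and 0 were lower at an unadjusted p under 0.05 (37% of all genes), and with libraries scaled to total gene reads 4 rose. Without CMP replicate 2, 7 rose, beside 23.8% of all genes. The gene mt-Nd1 went from 803 and 773 CPM to 1111 and 1154 CPM (log2 fold change 0.64, SE 0.04, edgeR adjusted p = 1.2e-08), and mt-Atp8 and mt-Atp6 rose by 0.68 and 0.63 on the log2 scale. In both MEP libraries mt-Nd1 lay above its level in every other RNA-seq library.

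Against GMPs, 49 of 81 nuclear genes rose and 7 fell in MEPs, beside 27.7% of genes rising and 33.7% falling, with a median log2 fold change of 0.21. Past 1.5-fold, 10 rose and 2 fell (16.6% and 27.2% of all genes), and at an unadjusted p under 0.05, 49 were higher and 9 lower (29.3% and 35.2%). Cox6b2 (21.4 and 22.1 CPM against 115 and 140 CPM) had a log2 fold change of 2.45 (SE 0.10, edgeR adjusted p = 1.3e-10), Ndufs1 of 0.98 and Ndufb9 of 0.87. Besides Cox4i2, with 47 reads in each GMP library and at least 16.2-fold lower in CPM and 17.4-fold lower with the TMM factors, and Cox6a2, the genes that fell were Ndufb11 (119 ± 3.05 to 102 ± 2.28 CPM, log2 fold change -0.32), Ndufa4 (-0.21), Ndufa3 (-0.18), Cox5a (-0.16) and Ndufb7 (-0.13), and without GMP replicate 1 the number that fell was 4, beside 29.8% of all genes. Of the mitochondrial genes 4 rose and 0 fell, mt-Atp8, mt-Atp6, mt-Nd1 and mt-Nd2. With libraries scaled to total gene reads 7 mitochondrial genes rose and 4 nuclear genes fell, beside 32% and 30.6% of all genes. Cox6b2 was thus ordered MEP above CMP above GMP, and its 23.6 ± 0.794 CPM in YHSCs (SD, n = 4), 23.4 ± 2.05 in OHSCs (n = 8) and 21.8 ± 0.507 in GMPs (n = 2) lay side by side.

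Genes of the related pathways were compared in the same way. In MEPs against CMPs, where 28.9% of all genes rose and 35.6% fell, 29 of 47 assembly factors rose and 2 fell, 17 of 27 genes of mitochondrial gene expression rose and 1 fell, 15 of 18 tricarboxylic acid cycle genes rose and 2 fell, and 6 of 15 biogenesis regulators rose and 4 fell. Tfam went from 62.4 ± 6.02 to 91.3 ± 1.41 CPM (SD, n = 2 each; log2 fold change 0.67, adjusted p = 3.8e-06 from edgeR), Cycs from 169 ± 8.51 to 233 ± 9.89 CPM (0.58), Lrpprc from 168 ± 6.99 to 243 ± 0.246 CPM (0.65) and Nrf1 from 111 ± 15.0 to 139 ± 5.94 CPM (0.44). Esrra fell from 30.5 ± 1.70 to 22.6 ± 2.72 CPM (-0.32). In CMPs against YHSCs, where 33.5% of all genes rose and 47.6% fell, 30 of 47 assembly factors rose and 5 fell, 19 of 27 genes of mitochondrial gene expression rose and 4 fell, 17 of 18 tricarboxylic acid cycle genes rose and 1 fell, and 8 of 18 biogenesis regulators rose and 7 fell. Cycs went from 35.8 ± 1.85 CPM (n = 4) to 169 ± 8.51 CPM (n = 2), while Ppargc1a went from 10.4 ± 0.508 to 0.0834 ± 0.0405 CPM. The 10 proliferation genes summed to 847 to 908 CPM in YHSCs, 3776 to 3809 in CMPs, 3651 to 3753 in GMPs and 4785 to 4908 in MEPs, and their part in the levels of the subunit genes was not tested.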

How the data were processed

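Raw gene counts were deposited for mRNA-seq, made by the authors with STAR (mm10) and featureCounts (GENCODE M22) after adapter trimming, and neither strand nor multi-mapping settings are stated in the sources used. Deposited ATAC-seq values are read counts over consensus regions from BWA alignments without duplicates or multi-mapped reads, with peaks from MACS. For H3K27ac and H3K4me3 the deposited values are a signal per peak from libraries normalized to a fixed read number. Columns of the authors' own old to young fold changes at histone peaks were not used, and 8 per-sample columns that could not be tied to a sample were left out. The labels name a total RNA kit for the HSC and progenitor libraries, where the methods name a SMART-Seq kit for young and old HSCs, and the sequencer differed between these and the transplanted HSCs.

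Counts were fitted over all genes with edgeR 4.0.16 in R 4.3.3 (TMM, filterByExpr, robust quasi-likelihood test, Benjamini-Hochberg adjustment), progenitors in 1 fit, without spike-ins. Calls used an adjusted p under 0.05 for RNA and, as in the study, 0.01 for ATAC-seq, where regions needed more than 1.5 CPM in at least 4 libraries. H3K27ac was fitted with limma 3.58.1 on log2(signal + 0.5). Standard errors are those of the edgeR fit, and p-values measure the spread between these libraries, which for pooled samples may be technical. Gene positions and lengths came from GENCODE M21, which held 96 of the 97 genes, copies were searched with BLAST+ 2.17.0, and DESeq2 1.42.0 was an alternative. The genes named are the 3 with the largest calls in each direction without overlap between groups, for nuclear and mitochondrial genes apart, and a fixed list of isoforms, core subunits and regulators, and Ndufa11, Uqcrq, Cox5a in later comparisons, Ndufa3, Ndufb7, Ndufb9 in CMPs, Atp5mpl after knockdown, the pathway genes that moved with age and the ATAC-seq regions were added after their values were seen. For genes named by this rule the lack of overlap was a condition and gives no further support. The genes, lists and tests were chosen with earlier results of these data known. Replicate numbers were not found to pair libraries. No 2 libraries of the same group agreed within sampling noise. The fits were tested on simulated counts with known changes.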

Additional observations from a re-analysis of the deposited data

Results flagged for a closer look

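In groups of 4 to 10 libraries, the lowest or highest library was compared with its neighbours by Dixon's criterion over 73 combinations of a measure and a group, of which chance alone marks about 1 in 20. OHSC replicate 1 stood low in the mitochondrial share of gene reads, at 0.552% against 0.651% to 0.691% in the other 7 OHSC libraries. It was also low in mt-Co1 (1765 CPM, others 2160 to 2323), mt-Nd4 (327 CPM, others 407.6 to 443.7) and mt-Cytb (1763 CPM, others 2012 to 2126), which are not independent of each other or of the share. Without this library 2 mitochondrial genes rose with age in place of 0. OHSC replicate 3 stood high in Sdhd, at 150.2 CPM against 134.6 to 142.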

How the results depend on the processing

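Depth and few libraries limit these results: most groups held 2 libraries, and calls on genes with few reads or with a copy elsewhere are uncertain. Scaling to total gene reads, spike-in scaling for age and the H3K27ac block were chosen after seeing the data. Of values for the genes named by the rule, 2460 kept direction and side of the threshold, 66 lost and 27 gained a call, and 3 reversed, from CMP to GMP with total gene reads: Ndufa4 (-0.0523), Sdhb (-0.18) and Ndufs1 (-0.0672). Over all subunit genes, that scaling turned the sign of 8 nuclear and 4 mitochondrial genes called in either fit from CMP to GMP, and of 5 and 1 from YHSC to CMP. The cause was not tested for any change. The share of all genes called moved with the fit as well. From CMP to GMP, 18.8% of all genes rose in the main fit and 8.2% with total gene reads. Where no such share is given, the counts below are not read as changes in the subunit genes.

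With total gene reads, falling nuclear genes numbered 5 with age and 0 in cultured knockdown, and 4 in MEP against GMP. Rising nuclear genes numbered 27 in GMP against CMP. Falling mitochondrial genes numbered 7 in CMP against YHSC, and rising ones 0 in GMP and 4 in MEP against CMP and 7 in MEP against GMP. A 1.5-fold minimum left rising nuclear genes at 0 with age, 0 in cultured knockdown, 2 in GMP and 36 in MEP against CMP and 10 in MEP against GMP, and falling ones at 0 in cultured knockdown, 1 in GMP against CMP and 2 in MEP against GMP. For mitochondrial genes it left 0 rising in cultured knockdown, 1 falling in CMP, 0 rising in GMP, 3 in MEP against CMP and 1 against GMP. With that minimum and an unadjusted p, cultured knockdown had 0 rising nuclear, 0 falling nuclear and 0 rising mitochondrial genes, and transplanted knockdown 1 rising nuclear gene. DESeq2 size factors gave 2 falling nuclear genes with age, DESeq2 3 in cultured knockdown and 1 interaction. In cultured knockdown, falling nuclear genes numbered 2 with no filter on low counts and 0 with mitochondrial genes left out. The share of all genes in those 2 fits is not given. With shRNA1 alone 7 fell and with shRNA2 alone 3 (5.79% and 4.22% of all genes). With no filter 5 mitochondrial genes rose in GMP against CMP, a fit for which the share of all genes is not given. At an adjusted p of 0.05, 1 ATAC-seq region rose.

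With the replicate number as a block, cultured knockdown had 0 falling nuclear and 0 rising mitochondrial genes. The share of all genes in that fit is not given. For H3K27ac, 1 peak rose with the block, beside 1161 of all 39557 peaks. The block changed no other count by over 1.5 times. The numbers did not pair the libraries: deviations of same-numbered libraries correlated at -0.23 to 0.06, and 0 of the YHSC libraries were closest to the OHSC library of the same number.

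For most fits with a library left out, the share of all genes called is not given. The ranges are therefore not read as changes in the subunit genes. Leaving out each library in turn gave, with age, 2 to 7 rising nuclear genes (7 without OHSC replicate 4, beside 13.4% of all genes). With age it also gave 1 to 2 falling nuclear genes (2 without OHSC replicate 1, 3 or 6) and 0 to 2 rising mitochondrial genes. In cultured knockdown it gave 0 to 1 rising nuclear, 0 to 2 falling nuclear (2 without shRNA2 replicate 1) and 0 to 1 rising mitochondrial genes. In CMP against YHSC it gave 78 rising and 2 falling nuclear genes and 4 to 6 rising and 3 to 4 falling mitochondrial genes. In GMP against CMP it gave 61 to 71 rising and 1 to 2 falling nuclear and 3 to 8 rising mitochondrial genes. In MEP against CMP it gave 70 to 72 and 2 to 3 nuclear and 7 to 10 mitochondrial genes. In MEP against GMP it gave 41 to 48 and 4 to 8 nuclear, 3 to 4 rising and 0 to 1 falling mitochondrial genes (1 without MEP replicate 2). ATAC-seq gave 16 to 22 falling regions. For H3K27ac, the median log2 fold change at the subunit genes was 0.02 without YHSC replicate 1 and -0.05 without replicate 2. At all promoter peaks these medians were 0.06 and -0.10.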
